A study of Rattus norvegicus with 2 samples.

Results

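Astrocyte genes were examined in hypothalamic RNA of female Sprague Dawley rats before and at puberty. The set held 10 genes, Gfap, Aqp4, Slc1a2, Slc1a3, Aldh1l1, Gja1, Gjb6, S100b, Glul and Sox9. They were taken by gene name, ignoring case, and all 10 were found among the 22777 genes of the mRNA table. Prepubertal rats were taken on postnatal day 25, and pubertal rats on postnatal day 35, at vaginal opening and in the first estrus. The labels name no treatment or genetic change for either group. The methods name 3 rats per stage, whereas the tables hold 1 column per stage. Each stage was therefore treated as 1 library, and no difference has a replicate check. Values are FPKM, a fragment count divided by transcript length and by the mapped fragments of the library, summed over the transcripts of a gene.

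Astrocytes are the glial cells that take up transmitter, buffer potassium and water, and couple to one another through gap junctions. In the hypothalamus they lie against the cell bodies and terminals of the neurons that secrete gonadotropin-releasing hormone. The genes examined are widely used markers, although none is strictly limited to astrocytes. Glul and S100b are also expressed in oligodendrocytes, Slc1a3 and Sox9 in tanycytes and ependymal cells, and Gja1 in meningeal fibroblasts. In bulk tissue, fewer cells of a type and less RNA per cell cannot be told apart.

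The fragments behind a value were estimated from the steps on which low FPKM fell. Among transcripts of 600 to 6000 nt from genes with 1 transcript, 94.1% of the low prepubertal values and 92.7% of the low pubertal values were whole multiples of 1 fragment within 0.1 of a fragment. The steps corresponded to a depth of about 20700000 fragments in the prepubertal library and about 16200000 fragments in the pubertal library. The 9 astrocyte genes other than Sox9 rested on an estimated 867 to 34366 fragments before puberty and 871 to 27150 at puberty. The intervals given below are exact binomial 95% confidence intervals from these fragments. They cover counting error only and say nothing of the spread between rats.

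The libraries also differed in other tissue markers. The 6 genes of fibroblasts and meninges were all lower at puberty, with a summed level of 66.7 FPKM before and 39.3 FPKM at puberty. The 4 genes of red blood cells were all higher, with 6406 and 12539 FPKM. All 8 microglial genes with a mean FPKM of at least 1 were above 0 in log2 ratio, with 255 and 302 FPKM over the list, and all 5 genes of oligodendrocyte progenitors were below 0, with 163 and 132 FPKM. The 6 pituitary genes summed to 7.15 and 14.5 FPKM, and of the 4 with a mean FPKM of at least 1, 3 were above 0 in log2 ratio and 1 below. Prl was listed at 0 before and 3.40 FPKM at puberty, about 41 fragments, and Gh1 at 0.872 and 4.09 FPKM, whereas Tshb was listed at 4.68 and 5.28 FPKM and Lhb at 1.44 and 1.29 FPKM. The 9 oligodendrocyte genes summed to 12786 and 13663 FPKM, the 11 neuronal genes to 2976 and 2790.1 FPKM, and the 6 listed genes of tanycytes and ependyma to 62.3 and 66.4 FPKM. Of the 10 hypothalamic peptide genes, 5 were higher and 1 lower by at least 1.2-fold, with sums of 2673 and 4070.1 FPKM. Among them Pmch, the precursor of melanin-concentrating hormone in the lateral hypothalamus, was listed at 1675 and 2723 FPKM. The part of these differences in the astrocyte values was not tested.

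Within the pair Slc1a2 and Slc1a3, and within the pair Gja1 and Gjb6, the genes did not differ alike between the libraries. The glutamate transporter gene Slc1a2 and the connexin gene Gja1 were lower in the pubertal library, while their relatives Slc1a3 and Gjb6 were level and higher, respectively. The bases before the start of these 4 genes are shown because the difference between libraries was unlike within each pair. Sequences are from RefSeq on GRCr8, read 5′ to 3′ on the strand of the gene, and end at the base before the first start listed for the gene. Each run holds 120 bases, with matches to the motifs named after them in capitals (AP-1 in Gja1, SOX in Slc1a3).

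Slc1a2, chr3:109459989-109460108, plus strand: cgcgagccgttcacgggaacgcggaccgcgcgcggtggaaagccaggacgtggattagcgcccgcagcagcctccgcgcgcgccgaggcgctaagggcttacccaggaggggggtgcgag
Slc1a3, chr2:59557809-59557928, minus strand: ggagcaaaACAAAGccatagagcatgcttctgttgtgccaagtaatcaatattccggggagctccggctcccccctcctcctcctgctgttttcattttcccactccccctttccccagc
Gja1, chr20:36302444-36302563, plus strand: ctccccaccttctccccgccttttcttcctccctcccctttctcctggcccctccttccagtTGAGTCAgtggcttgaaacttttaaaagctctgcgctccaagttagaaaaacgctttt
Gjb6, chr15:35410139-35410258, minus strand: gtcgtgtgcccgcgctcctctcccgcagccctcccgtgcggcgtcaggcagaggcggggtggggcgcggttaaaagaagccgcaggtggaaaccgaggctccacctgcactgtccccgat

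Of the 10 genes, 9 had a window in the RefSeq table, and the 250 bases before the start were searched on both strands. The AP-1 motif TGANTCA was found in 1 of the 9, Gja1, 58 to 52 bases before the start, and in 6.36% of 27457 promoters. The SOX motif ACAANG was found in 2, Slc1a3 and Aldh1l1, and in 36.4% of all promoters. The GC box GGGCGG was found in 4, Aqp4, Aldh1l1, Gjb6 and Glul, and in 32.4% of all promoters. The STAT motif TTCNNNGAA and the full palindromic estrogen response element were found in 0 of the 9, and in 7.52% and 0.0219% of all promoters. No match overlapped another, and a match is a run of letters in this window rather than a site. The GRCr8 coordinates are not those of the alignment, for which the sources name earlier assemblies.

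The astrocyte genes covered a wide range of levels. Glul was listed at 746 FPKM before puberty and 753 FPKM at first estrus, and S100b at 693 and 764 FPKM. They ranked 136 and 145 of the 22777 genes before puberty. Slc1a2, Gfap, Slc1a3 and Aqp4 lay between 188 and 374 FPKM in both libraries, Gja1 and Gjb6 between 50.5 and 106 FPKM, and Aldh1l1 at 16.9 and 21.6 FPKM. Sox9 was the lowest, at 1.596 and 1.502 FPKM. These levels are per length of the listed transcripts, so they depend on how complete each transcript model is.

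Together the 10 genes summed to 2719.6 FPKM before puberty and 2652 FPKM at puberty, a ratio of 0.975. Glul and S100b made up 27.4% and 25.5% of this sum before puberty and 28.4% and 28.8% at puberty. The order of levels was alike in both libraries apart from 2 exchanges. S100b stood below Glul before puberty and above it at puberty, where their ratio of 1.01 had an interval from 0.994 to 1.03. Slc1a2 stood above Gfap before puberty, 1.45 times as high, and below it at puberty. At puberty, Slc1a2 and Slc1a3 were also neighbours whose interval of the ratio held 1. The other neighbours in the order differed beyond counting error within each library, and their spread between rats is unknown.

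**Figure D1:**
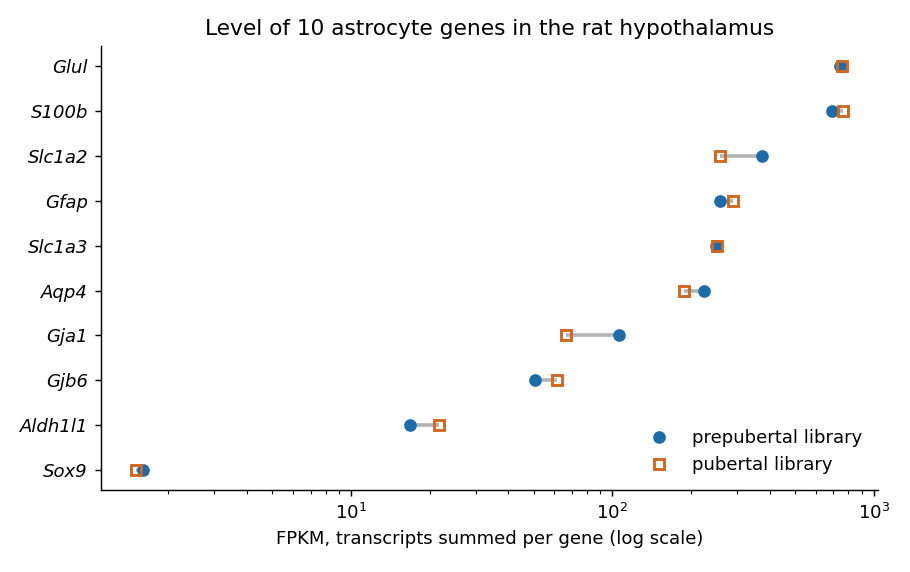
Level of the 10 astrocyte genes in the prepubertal (filled circles) and pubertal (open squares) library, as FPKM on a log axis, with genes ordered by their mean. Slc1a2 differs by 374 against 258 FPKM and Gja1 by 106 against 66.3 FPKM, while Glul and Slc1a3 overlap.

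For each gene the difference was taken as log2 of (pubertal FPKM + 1) over (prepubertal FPKM + 1), with positive values for a higher level at puberty. The median of the 10 genes was 0.01, and that of the 13804 genes with a mean FPKM of at least 1 was -0.01. By this measure, 6 of the 10 genes were above 0 and 4 below. A difference of at least 1.2-fold was found for 4 genes, 2 higher (Aldh1l1 and Gjb6) and 2 lower (Gja1 and Slc1a2). Among the 13804 genes, 11.3% were higher and 15.3% lower by this fold. Among the 8237 genes with a mean FPKM of at least 10, closer in level to the astrocyte genes, 10.1% were higher and 11.6% lower. With 10 genes, 2 in each direction is near these shares. A 2-fold difference was reached by 0 of the 10, against 0.956% of the 13804 and 0.558% of the 8237 genes. Since there was 1 library per stage, no gene was tested.

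The split depended on the scaling of the libraries. After scaling to an equal sum of mRNA FPKM, 1 gene, Aldh1l1, was higher and 3, Gja1, Slc1a2 and Aqp4, were lower. Beside them, 7.99% of the 13804 genes were higher and 20.1% lower. After scaling to equal Actb, 6 were higher and 1, Gja1, was lower, beside 65.1% higher and 2.43% lower of all genes. Scaling to equal Actb moved the median of the 13804 genes by 0.37 on the log2 scale, to 0.36, while the median of the astrocyte genes became 0.41. After centring within classes of transcript length, 1 gene, Aldh1l1, was higher, and Gja1 and Slc1a2 were lower, beside 10.2% higher and 14.4% lower of all genes.

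**Figure D2:**
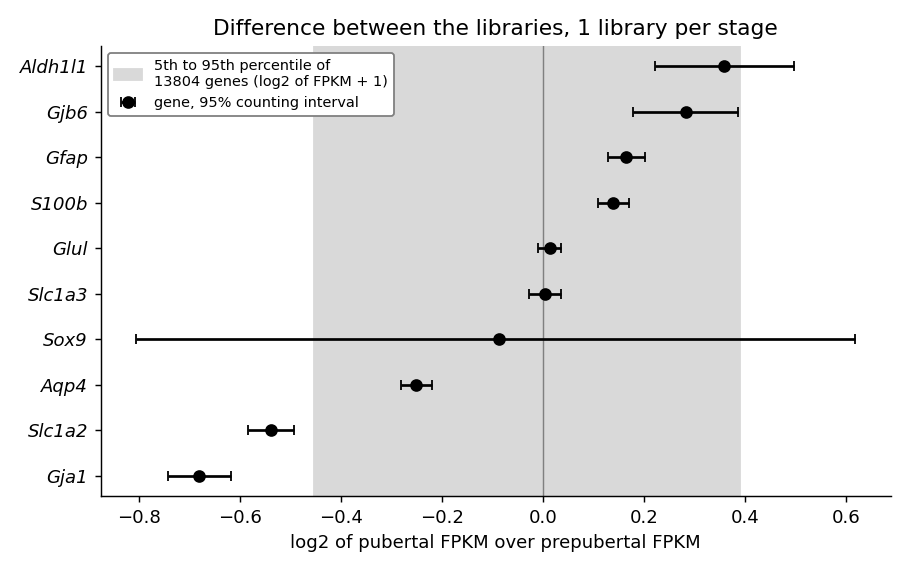
log2 of the pubertal over the prepubertal FPKM for each astrocyte gene, with 95% counting intervals as bars, against the 5th to 95th percentile of 13804 genes (-0.45 to 0.39, shaded). Gja1 and Slc1a2 lie below the shaded range, Sox9 has the widest interval, and no bar shows the spread between rats.

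Slc1a2 and Slc1a3 encode GLT-1 and GLAST, the main glutamate transporters of astrocytes, which clear the transmitter from the synapse. Slc1a2 (ENSRNOG00000005479) was listed at 374 FPKM before puberty and 258 FPKM at puberty, about 11248 and 6072 fragments. The pubertal level was 0.689 times the prepubertal one (0.667 to 0.711), a log2 ratio of -0.54, and 3.11% of the 13804 genes had a lower log2 ratio. Slc1a3 (ENSRNOG00000016163) was listed at 249.9 and 250.6 FPKM, a ratio of 1.003 (0.981 to 1.02). Its second transcript held 1.34% and 1.12% of the level and so weighed little.

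The ratio of Slc1a2 to Slc1a3 within a library does not depend on the scaling between libraries. It was 1.497 (1.46 to 1.53) before puberty and 1.03 (0.997 to 1.06) at puberty. Slc1a2 thus stood above Slc1a3 in the prepubertal library and was not distinguishable from it by counting error in the pubertal library. Slc1a2 was listed with 1 transcript of 1705 nt, and Slc1a3 mainly with one of 3854 nt. The median log2 ratios of all genes in these length classes were 0.03 and -0.07. The classes follow the listed length, so they depend on how complete each transcript model is. The class of the longest transcripts had a median of -0.13. Glul, the glutamine synthetase that converts the glutamate taken up, was listed at 746 and 753 FPKM, a ratio of 1.01 (0.993 to 1.03).

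Gja1 and Gjb6 encode connexin 43 and connexin 30, the main gap junction proteins between astrocytes. Gja1 (ENSRNOG00000000805) was listed at 106 FPKM before puberty and 66.3 FPKM at puberty, about 6336 and 3092 fragments. The pubertal level was 0.624 times the prepubertal one (0.597 to 0.651), a log2 ratio of -0.67, the lowest of the 10 genes. Of the 13804 genes, 1.46% had a lower log2 ratio. Gjb6 (ENSRNOG00000022116) was listed at 50.5 and 61.4 FPKM, about 1534 and 1462 fragments, a ratio of 1.22 (1.13 to 1.31) and a log2 ratio of 0.28.

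The ratio of Gja1 to Gjb6 was 2.11 (1.99 to 2.23) in the prepubertal library and 1.08 (1.01 to 1.15) in the pubertal library, 0.513 times as high. Gja1 was the more abundant connexin before puberty, and both were close to level at puberty. Gja1 was listed with 1 transcript of 3127 nt and Gjb6 with one of 1719 nt, and the median log2 ratios of all genes in these length classes were -0.05 and 0.03, in the same order as the pair. After centring on these medians Gja1 stood at -0.62 and Gjb6 at 0.25. Gja1 is also expressed by fibroblasts of the meninges, whose markers moved in the same direction. Slc6a13, a transporter of meningeal cells, was listed at 8.72 and 3.71 FPKM, and the collagen genes Col1a1 and Col1a2 at 9.57 and 2.93 FPKM and at 15.8 and 8.76 FPKM. Of the 6 markers, 5 were lower by at least 1.2-fold, all but Dcn (11.8 and 10.9 FPKM), and 2 of them, Col1a1 and Slc6a13, by more than 2-fold. The part of meningeal cells in the Gja1 difference was not tested.

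**Figure D3:**
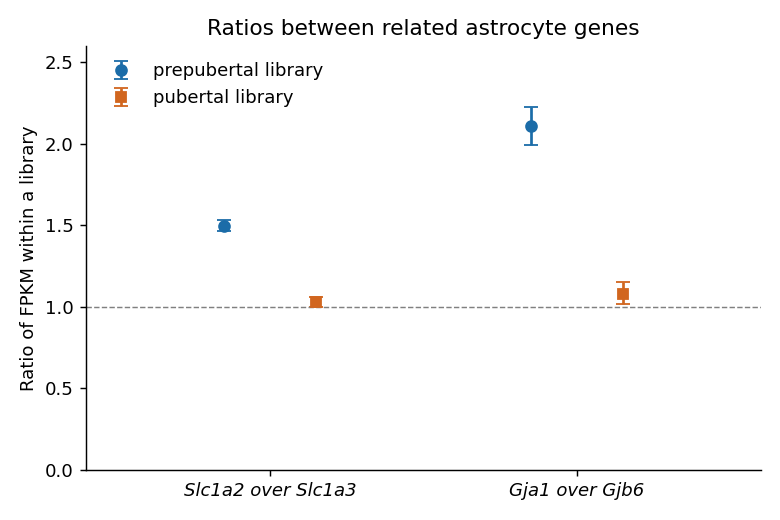
Ratio of FPKM within a library for Slc1a2 over Slc1a3 and for Gja1 over Gjb6, in the prepubertal (circles) and pubertal (squares) library, with 95% counting intervals. Both ratios were lower at puberty, 1.03 against 1.497 and 1.08 against 2.11, and a dashed line marks equal levels.

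Aqp4 encodes aquaporin-4, the water channel of astrocyte endfeet. Aqp4 (ENSRNOG00000016043) was listed at 224 and 188 FPKM, a ratio of 0.840 (0.823 to 0.858) and a log2 ratio of -0.25, just short of 1.2-fold. Its shorter transcript of 4845 nt, with 14.8 and 10.9 FPKM, and its longer one of 5010 nt, with 209 and 177 FPKM, were both lower at puberty. Genes of this length class had a median log2 ratio of -0.13, and after centring on it Aqp4 stood at -0.12. After scaling to an equal sum of mRNA FPKM Aqp4 was -0.31, past 1.2-fold, where the median of the 13804 genes was -0.06. After scaling to equal medians it was -0.18, where that median was 0.05. After scaling to equal Actb it was 0.15, where the median of the 13804 genes was 0.36.

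Gfap encodes the intermediate filament of astrocytes, and S100b a calcium-binding protein. Gfap (ENSRNOG00000002919) was listed at 257 and 288 FPKM, a ratio of 1.12 (1.09 to 1.15) and a log2 ratio of 0.16. Its transcripts of 2713 nt and 1291 nt differed alike, with ratios of 1.12 and 1.10, and the longer one held 94.3% and 94.4% of the level. S100b (ENSRNOG00000001295) was listed at 693 and 764 FPKM, a ratio of 1.10 (1.08 to 1.13). Both genes were higher at puberty by less than 1.2-fold, and kept this direction under the alternatives tried.

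Aldh1l1 encodes a folate enzyme, 10-formyltetrahydrofolate dehydrogenase, and is a widely used astrocyte marker. Aldh1l1 (ENSRNOG00000047023) was listed at 16.9 and 21.6 FPKM, about 867 and 871 fragments. The ratio was 1.28 (1.17 to 1.41) and the log2 ratio 0.34, the highest of the 10 genes. Of the 13804 genes, 93.1% had a lower log2 ratio, and the gene lay inside the range from the 5th to the 95th percentile.

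Sox9 encodes a transcription factor of astrocytes and their progenitors. Sox9 (ENSRNOG00000002607) was listed with 1 transcript of 1524 nt at 1.596 and 1.502 FPKM, which correspond to about 42 and 31 fragments. The ratio was 0.942 with an interval from 0.572 to 1.53, so a difference between the libraries was not detectable at this depth. The intervals of Slc1a3, Glul and Sox9 held 1, and those of the other 7 genes did not.

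**Figure D4:**
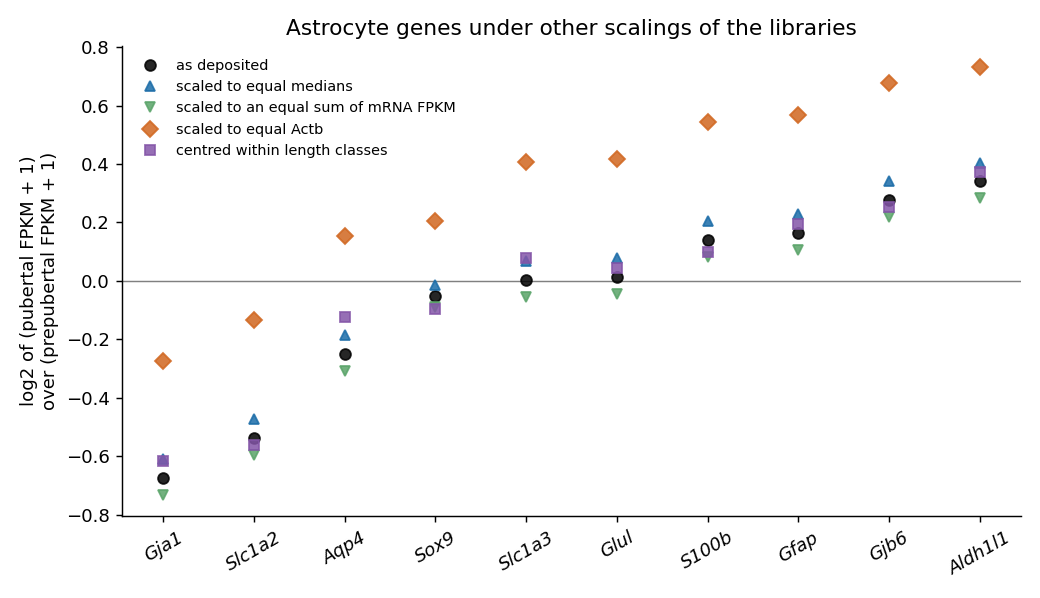
log2 ratio (FPKM + 1, pubertal over prepubertal) of each astrocyte gene as deposited, after scaling to equal medians, to an equal sum of mRNA FPKM or to equal Actb, and after centring within length classes. Gja1 and Slc1a2 stayed below 0 in all 5 settings, and Gfap, S100b, Gjb6 and Aldh1l1 above 0.

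Other genes of astrocytes were compared in 10 lists by role, set with earlier results of these data known. Of 112 names, 111 were listed in the mRNA table. A difference of at least 1.2-fold was found for 10 higher and 25 lower of the 111, and for 10 higher and 24 lower of the 100 with a mean FPKM of at least 1. The shares of 10% and 24% stand beside 11.3% and 15.3% of all 13804 genes, and the median log2 ratio was -0.08. After scaling to equal Actb, 54 of the 111 were higher and 4 lower, where 65.1% of the 13804 genes were higher and 2.43% lower. The 111 include 11 genes with a mean FPKM below 1, which the 13804 leave out. The counts and medians below are over genes with a mean FPKM of at least 1.

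In glutamate and GABA cycling, 1 of 10 genes was higher and 2 were lower by 1.2-fold. Slc6a11, the astrocyte GABA transporter GAT-3, was lower, from 90.7 to 64.9 FPKM (ratio 0.715, interval 0.676 to 0.757), next to Slc1a2. Grm3, a metabotropic glutamate receptor, was higher, from 36.6 to 47.4 FPKM (1.30, 1.22 to 1.37). Glud1, glutamate dehydrogenase, was listed at 311 and 319 FPKM.

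In potassium, water and ion transport, 0 of 13 genes were higher and 2 were lower by 1.2-fold, with a median log2 ratio of -0.09. Atp1b2, a beta subunit of the sodium pump, was listed at 29.9 and 21.5 FPKM (ratio 0.720, interval 0.665 to 0.780), the lowest log2 ratio of the list (-0.46). Mlc1, a membrane protein of endfeet, was listed at 147 and 159 FPKM, the highest log2 ratio of the list (0.12).

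Of the 7 other genes of gap junctions and hemichannels, 4 were lower by 1.2-fold and 0 higher, with a median log2 ratio of -0.34. Panx2, a pannexin, was the lowest in ratio, from 10.4 to 6.65 FPKM (0.639, 0.553 to 0.738). Gjc3, a connexin of oligodendrocytes, was listed at 58.8 and 46.2 FPKM (0.787, 0.692 to 0.893). Gja1, at -0.67, was lower with these 4, and Gjb6 stood at 0.28.

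Among intermediate filament and glial progenitor genes, 3 of 6 were lower by 1.2-fold and 0 higher, with a median log2 ratio of -0.30. Fabp7, the brain fatty acid-binding protein of radial glia and young astrocytes, was listed at 162 and 105 FPKM (0.653, 0.591 to 0.721). Tnc, the matrix protein tenascin C, was listed at 7.18 and 3.81 FPKM (0.531, 0.468 to 0.6005). Vim, the filament protein vimentin, was listed at 68.5 and 64.7 FPKM and Prom1 at 12.2 and 12.5 FPKM, both within 1.2-fold.

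S100 proteins other than S100b were higher by 1.2-fold in 3 of 7 genes and lower in 1, with a median log2 ratio of 0.18. S100a13 was listed at 269 and 348 FPKM, S100a16 at 122 and 138 FPKM and S100a1 at 23.3 and 16.03 FPKM. The S100a13 and S100a1 transcripts are 484 and 285 nt long, shorter than those from which fragments were derived, and no interval is given for them. The median log2 ratio of all genes of 168 to 759 nt was 0.07.

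In one-carbon, lipid and glucose metabolism, 3 of 12 genes were higher and 1 lower by 1.2-fold, with a median log2 ratio of 0.16. Aldh1a1, a retinaldehyde dehydrogenase, was listed at 30.1 and 58.6 FPKM (1.94, 1.80 to 2.096), and its log2 ratio of 0.94 was the highest of the 100 genes. The libraries also differed in markers of other cells, and the part of such cells in the Aldh1a1 difference was not tested. Aldoc, the glycolytic enzyme aldolase C, was listed at 1095 and 1293 FPKM (1.18, 1.16 to 1.201), and Pygb, a glycogen phosphorylase, at 171 and 189.6 FPKM. Slc16a1, the lactate transporter MCT1, was lower, from 61.8 to 49.1 FPKM (0.794, 0.755 to 0.836).

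Of the 17 transcription factors, 1 was higher and 3 were lower by 1.2-fold, with a median log2 ratio of -0.11. Id3 was listed at 52.0 and 64.5 FPKM and Id1 at 25.2 and 18.4 FPKM, so these inhibitors of bHLH factors differed in direction. Id4, with the highest mean level of the list, was listed at 59.7 and 62.6 FPKM. All 3 stood well above Sox9 in level.

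Among secreted and synapse-organising genes, 4 of 10 were lower by 1.2-fold and 0 higher, with a median log2 ratio of -0.21. Sparc, a matrix-binding protein, was listed at 1174 and 923 FPKM (0.786, 0.774 to 0.798). Thbs1, the synapse-promoting thrombospondin 1, was listed at 3.35 and 1.78 FPKM (0.532, 0.383 to 0.729). Both are also made by fibroblasts, whose 6 markers summed to 66.7 and 39.3 FPKM, and the part of these cells was not tested. Cst3, the protease inhibitor cystatin C, was listed at 4472 and 5216 FPKM (1.17, 1.15 to 1.18) and is also made by microglia. The 9 microglial genes summed to 255 and 302 FPKM, with C1qa at 80.4 and 95.4 FPKM. The part of microglia in the Cst3 difference was not tested.

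Of 10 receptors and phagocytic genes, 1 was higher and 2 were lower by 1.2-fold, with a median log2 ratio of -0.06. Fgfr3, a fibroblast growth factor receptor, was listed at 37.8 and 49.2 FPKM (1.30, 1.23 to 1.38). Adora2b, an adenosine receptor, was listed at 3.27 and 2.28 FPKM (0.698, 0.499 to 0.967). Gpr37l1 was listed at 169 and 164 FPKM and Ednrb, the endothelin receptor B, at 107 and 101 FPKM.

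Genes of reactive astrocytes were low, as 7 of 15 had a mean FPKM below 1 and the highest, Cp and Cd44, were listed at 9.26 and 9.43 FPKM and at 8.32 and 8.76 FPKM. Of the 8 with a mean of at least 1, 1 was higher and 2 were lower by 1.2-fold. Hspb1, a small heat shock protein, was listed at 5.26 and 7.89 FPKM (1.501, 1.05 to 2.15). Serping1, the C1 inhibitor, was listed at 2.42 and 0.881 FPKM (0.365, 0.216 to 0.592), about 77 and 22 fragments. The part of other cells in the Serping1 difference was not tested. Of 2 genes often used for reactive astrocytes, Lcn2 was listed at 0.780 and 0.811 FPKM, and Serpina3n at 0.0157 FPKM in the prepubertal library, about 1 fragment, and at 0 in the pubertal one.

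**Figure D5:**
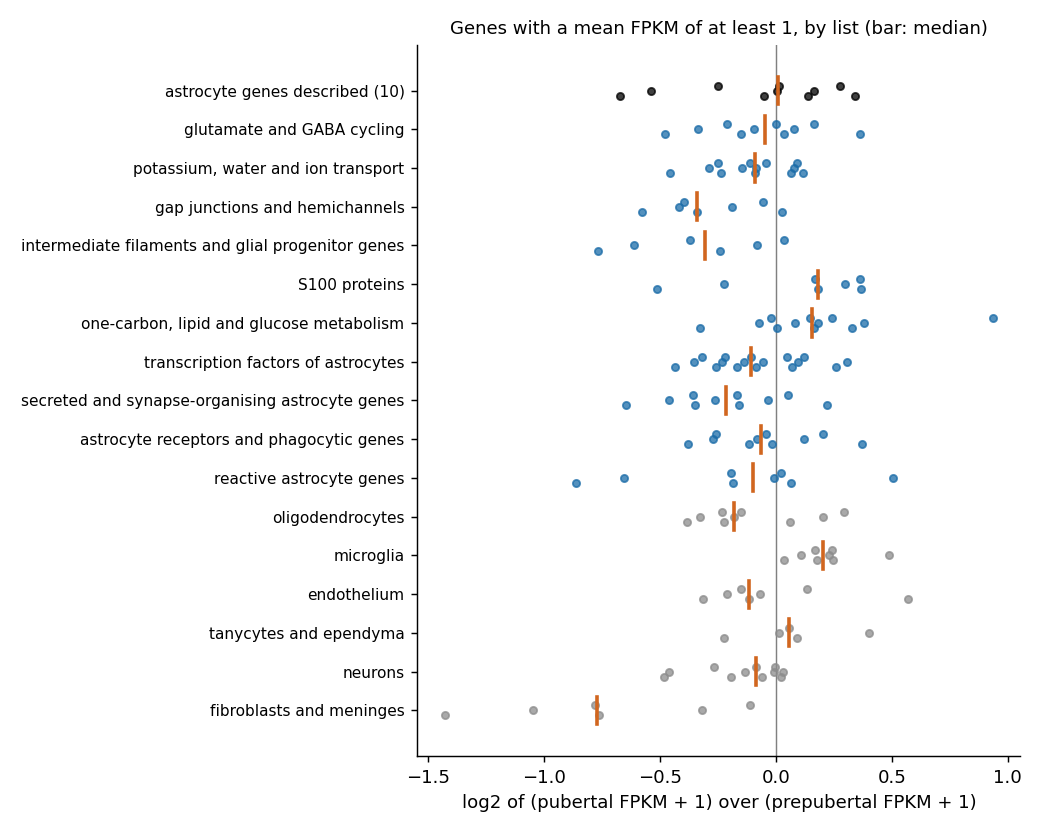
log2 ratio (FPKM + 1, pubertal over prepubertal) of each gene with a mean FPKM of at least 1, by list, for the 10 astrocyte genes (black), other astrocyte genes (blue) and markers of other cells (grey), with list medians as orange bars. The median was 0.01 for the 10 astrocyte genes, -0.34 for other gap junction genes and -0.77 for fibroblasts and meninges.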

How the data were processed

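Total RNA of hypothalamus was depleted of ribosomal RNA and sequenced in strand-specific libraries as paired ends. The authors aligned reads to the rat genome with TopHat, assembled transcripts with Cufflinks 2.1.1 and Scripture, and estimated the deposited FPKM with Cuffdiff 2.1.1. The submitters' processing notes name Rnor_5.0, whereas the study's methods link the annotation of a later rat assembly, so the build is uncertain. How the 3 rats of a stage were combined is not given in the sources used here. Transcript lengths came from the deposited comparison table. Its fold changes, p-values and q-values were not used, and neither were the tables of long noncoding RNAs.

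FPKM was summed per gene, and genes of one name were summed in the lists. A pseudocount of 1 was added before log2. The value of 1 fragment was estimated from low FPKM of single-transcript genes, by the step and the length taken off (255 and 250 nt) that gave whole multiples most often, and was tested on simulated data. No test between stages was made, and p-values are not given. Genes named were all 10 members, and in each list of other astrocyte genes the 2 highest by mean level and the extremes of the log2 ratio, with the highest by level from each list of other cells. Of the latter, only those beside a result are printed. A few genes that the rule names are not reported here. Col1a1, Slc6a13, Dcn, Prl, Gh1, Lhb, Lcn2 and Serpina3n were named after their values were seen. Members and lists were chosen with earlier results of these data known. Alternatives were a pseudocount of 0.1, a minimum mean FPKM of 1, the highest transcript, 3 scalings, the FPKM of the comparison table and, added after seeing the data, centring within 10 length classes and a background of genes with a mean FPKM of at least 10. Computations were run in scipy 1.17.1, pandas 2.3.3 and numpy 2.4.6, plots were drawn in matplotlib 3.10.9, all under Python 3.11.15.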

Additional observations from a re-analysis of the deposited data

How the results depend on the processing

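The 10 astrocyte genes had a median log2 ratio of 0.01, with 2 higher and 2 lower by 1.2-fold. These values held, within counting error, with a pseudocount of 0.1 and the highest transcript. A minimum mean FPKM of 1 and the comparison table could not alter them, since all 10 genes pass the minimum and 0 of their 13 transcripts differ between the tables. The median became 0.073 after scaling to equal medians, -0.0505 with an equal sum of mRNA FPKM, 0.060 after centring within length classes (chosen after seeing the data) and 0.41 with equal Actb. An equal sum and the length classes each left 1 gene higher, where 7.99% and 10.2% of the 13804 genes were higher. With equal Actb, 7 passed 1.2-fold, 6 higher and 1 lower, as did 65.1% and 2.43% of the 13804 genes. For the 111 other astrocyte genes, 35 passed it, with a median of -0.08. With a pseudocount of 0.1, 44 passed, 12 higher and 32 lower, beside 14.6% and 18.1% of the 22777 genes. The median became -0.053 after centring within length classes, -0.019 with equal medians, -0.13 with an equal sum and 0.26 with equal Actb. With equal Actb, 58 of the 111 passed, 54 higher and 4 lower, beside the same shares of the 13804 genes. The 13804 leave out genes with a mean FPKM below 1, and the 111 do not. The 3 scalings used factors of 1.05, 0.960 and 1.32 on the pubertal library, in the order medians, sum and Actb. Gja1 ranged from -0.73 to -0.27, Slc1a2 from -0.60 to -0.13, Aqp4 from -0.31 to 0.15, Gjb6 from 0.22 to 0.68 and Aldh1l1 from 0.285 to 0.73. With 1 library per stage, no replicate could be left out, and the spread between rats is unknown. Sox9, with about 42 and 31 fragments, was limited by depth.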
